A study of Mus musculus with 12 samples.

Results

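The 7 genes described here encode cytokines of the interleukin-10 (IL-10) family and the receptor chains of the IL-10, IL-19 and IL-4 systems in the mouse: Il19, Il10, Il10ra, Il10rb, Il20rb, Il4ra and Il13ra1. They were taken by symbol from both deposited gene count tables, and all 7 were listed in each, among 32285 genes in the retina table and 55401 in the table of pericyte-labelled cells. They were chosen by the vesicle against PBS differences measured in these same libraries, so those differences are given for the 7 genes as descriptions, without p-values as evidence.

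The 12 wild-type libraries formed 4 groups of 3. In the retina, both groups had optic nerve crush (ONC in the labels) and were taken on day 1, the first after MSC.sEV (marked i.o. in the labels), which are small membrane vesicles released by mesenchymal stem cells, and the second with phosphate-buffered saline (PBS). Cells labelled brain microvascular pericytes P4, a code the labels do not explain, were given the same kind of vesicles or PBS for 12 hours. There was no uncrushed retina among the samples, so crush is shared by both retina groups. Strain, age, the species of the vesicle donor cells and whether libraries came from separate animals or cultures are not stated in the labels. The p-values then measure only the spread between these libraries. The retina columns carried short names that were read as vesicles and PBS by inference, so the direction of every retina difference rests on that reading.

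Retina libraries held 15580024 to 16842926 counts each, and libraries of pericyte-labelled cells 33001248 to 37954077. Expression is given as CPM, a gene's counts relative to its library total after TMM scaling. A floor of 3 counts corresponded to 0.18 to 0.196 CPM for retina libraries and to 0.0777 to 0.0894 CPM for the others. Rod genes were abundant in every retina library (7 markers summing to between 64400 and 77900 CPM with vesicles and between 94700 and 99800 CPM with PBS). In the cells labelled pericytes, 10 pericyte and mural markers summed to 699 to 715 CPM with vesicles and 669 to 713 CPM with PBS. Single markers of that list differed widely. Pdgfrb averaged 70.8 ± 4.89 CPM with vesicles and 59.7 ± 3.48 CPM with PBS (SD, n = 3 each), whereas Rgs5 averaged 0.891 ± 0.429 and 0.283 ± 0.199 CPM in the same order. Abcc9 had no count with PBS. Gfap, an intermediate filament of astrocytes, stood at 200 ± 7.17 CPM with vesicles and 214 ± 6.38 CPM with PBS, and Olig1, a factor of the oligodendrocyte lineage, at 150 ± 15.4 and 208 ± 2.69 CPM. The cells are therefore called pericyte-labelled.

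IL-10 is a cytokine that restrains macrophages and other leukocytes. It binds a receptor made of a ligand-specific chain, IL-10Rα (Il10ra), found mainly on leukocytes, and a widely expressed chain, IL-10Rβ (Il10rb), which also serves IL-22 and interferon lambda; STAT3 is its main transcription factor. IL-19 is a related cytokine that signals through a pair of chains, IL-20Rα (Il20ra) and IL-20Rβ (Il20rb), both shared with IL-20 and IL-24. IL-4 and IL-13 act through IL-4Rα (Il4ra), paired with the common gamma chain (Il2rg) in leukocytes or with IL-13Rα1 (Il13ra1) in many other cells, and signal through STAT6 to the macrophage programme called alternative activation.

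The sequences before the gene starts of Il19 and Il4ra are shown because Il19 had the largest difference in the retina and Il4ra was higher with vesicles in both settings. RefSeq promoter windows of build GRCm38.p6 were found for 4 of the 7 genes (Il19, Il20rb, Il4ra and Il13ra1). The 250 bases before the start were searched on both strands for a STAT palindrome (TTCNNNGAA), a STAT6-type palindrome (TTC and GAA with 4 free bases between), an AP-1 motif (TGANTCA), a C/EBP motif (TTGCNNAA) and the NF-kB consensus. The first 4 occur in 7.02%, 5.85%, 6.75% and 9.56% of all 32851 windows of that length, and the NF-kB consensus in 3.9%. The Il19 window held a STAT palindrome starting at position -225 and an NF-kB consensus match starting at position -77 from the gene start, which do not overlap and are in capitals. Other starts of Il19 were not searched. None of the motifs was in the Il4ra or Il13ra1 window, and Il20rb had 1 C/EBP match on the reverse strand at position -78. A match in letters describes the sequence and does not show a bound site. The Il19 window is chr1:130940116-130940365 on the minus strand and the Il4ra window chr7:125552021-125552270 on the plus strand, both written 5′ to 3′ along the gene.
Il19: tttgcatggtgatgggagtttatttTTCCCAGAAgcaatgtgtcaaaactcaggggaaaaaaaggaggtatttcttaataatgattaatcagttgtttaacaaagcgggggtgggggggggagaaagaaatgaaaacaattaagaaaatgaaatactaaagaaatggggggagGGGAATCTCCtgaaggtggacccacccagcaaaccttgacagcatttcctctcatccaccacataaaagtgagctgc
Il4ra: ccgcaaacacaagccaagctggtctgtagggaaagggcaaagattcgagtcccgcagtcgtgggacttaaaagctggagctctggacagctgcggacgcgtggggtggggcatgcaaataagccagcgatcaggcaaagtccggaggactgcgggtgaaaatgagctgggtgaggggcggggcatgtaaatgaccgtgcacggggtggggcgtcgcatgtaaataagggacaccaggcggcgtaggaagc

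Among the ligands in the retina, Il19 was the one with the larger difference. It had 171, 477 and 162 counts in the 3 vesicle libraries and 0, 0 and 0 in the PBS libraries. In CPM the vesicle libraries held 10.9, 30.1 and 9.99, with library 2 highest. Had the PBS group held 3 counts in all, the pooled vesicle level would be 274-fold higher. This bound covers counting error in the PBS group only and not the spread between libraries. Vesicle library 2 held 477 of the 810 reads, and lens genes took 6.97% of its counts, against 1.8% and 0.0104% in vesicle libraries 1 and 3. Lens genes took 0.606%, 0.0634% and 0.0545% in PBS libraries 1, 2 and 3, and the part of lens tissue in Il19 was not tested. Without vesicle library 2 the vesicle mean was 10.4 CPM and the bound 168-fold, and without 1 PBS library the bound was 180-fold to 187-fold. The groups did not overlap, and the lowest vesicle library was far above the limit that a count of 0 allows. Il10, the founding member of the family, was near the limit of detection, with 11, 6 and 3 counts with vesicles and 1, 0 and 0 with PBS. The ratio of its group sums was 20.3, with a 95% exact counting interval from 3.25 to 841 that covers counting error only. It was 13.3 without PBS library 3 and 13.4 without PBS library 2. The whole PBS signal was the 1 count in library 1, without which no ratio could be formed. Il10 did not pass the filter on low counts and has no fitted value.

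The chains of the IL-10 receptor were both higher in vesicle-treated retina. Il10ra stood at 9.61, 8.71 and 7.77 CPM with vesicles and at 1.5, 0.79 and 1.32 CPM with PBS (log2 fold change 2.85 ± 0.29, SE). Il10rb stood at 28.6, 32.1 and 17.4 CPM with vesicles and at 4.11, 6.44 and 6.06 CPM with PBS (log2 fold change 2.23 ± 0.26). Neither gene overlapped between the groups, and vesicle library 3 was the lowest of its group for both. The leukocyte-restricted chain moved together with leukocyte markers. All 5 pan-leukocyte markers rose, with sums from 200 to 317 CPM with vesicles and from 29.3 to 45.1 CPM with PBS, as did 8 of 8 monocyte and macrophage markers, whose sums were 592 to 864 CPM with vesicles and 53.9 to 85.1 CPM with PBS. Neutrophil markers rose too, 7 of 7, to sums of 349 to 774 CPM with vesicles, against 4.31 to 16.4 CPM with PBS, while 3 of 6 microglia markers fell. T cell markers summed to 2.1 to 5.22 CPM with vesicles and 0.607 to 1.56 CPM with PBS, and none of them passed the filter. The part of these cells in the receptor levels was not tested, and in bulk RNA a change in the number of cells cannot be told apart from a change in RNA per cell. Il10rb shares 14.9% of its exon bases with the annotated gene Gm21970 on the same strand. That name was not among the retina genes, and it had 0 counts in the pericyte-labelled cells. How reads in the shared bases were assigned is therefore uncertain in both settings.

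Il20rb, the chain of the IL-19 receptor among the 7 genes, was close to the floor in the retina. It had 8, 8 and 9 counts with vesicles and 8, 0 and 7 with PBS, so the groups overlapped, and it did not pass the filter. The ratio of the sums was 1.69 (95% exact counting interval 0.857 to 3.45), and 1.12 without PBS library 2. Markers of epithelium, a tissue known for IL-20Rβ, varied within the groups and summed to 49, 139 and 38.3 CPM with vesicles and to 37.2, 18 and 509 CPM with PBS. None of these 7 markers was called, and their part in the Il20rb reads was not tested. The partner chain Il20ra, outside the 7 genes and also below the filter, had 6, 1 and 6 counts with vesicles and 7, 26 and 18 with PBS.

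The receptor chains for IL-4 and IL-13 were both higher in vesicle-treated retina. Il4ra stood at 36.4, 36.9 and 23.6 CPM with vesicles and at 4.3, 4.31 and 6.78 CPM with PBS (log2 fold change 2.65 ± 0.24). Il13ra1 stood at 30.2, 29 and 16.2 CPM with vesicles and at 2.41, 0.668 and 3.54 CPM with PBS (log2 fold change 3.5 ± 0.55). The groups were apart for both, vesicle library 3 was again lowest, and PBS library 2 had the fewest Il13ra1 reads (11 counts, against 37 and 59 in PBS libraries 1 and 3). Summed leukocyte markers were also lowest in these libraries of each group, at 200 CPM in vesicle library 3 and 29.3 CPM in PBS library 2. With PBS, Il10rb did not share that order and was highest in library 2 (6.44 CPM). Il4ra was nearly equal in PBS libraries 1 and 2 (4.3 and 4.31 CPM) and higher in library 3 (6.78 CPM). The part of leukocytes in these levels was not tested. Il4ra shares 9.51% of its exon bases with an antisense gene, Gm44876, which held 0 counts with vesicles and 1 with PBS in the retina.

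**Figure D1:**
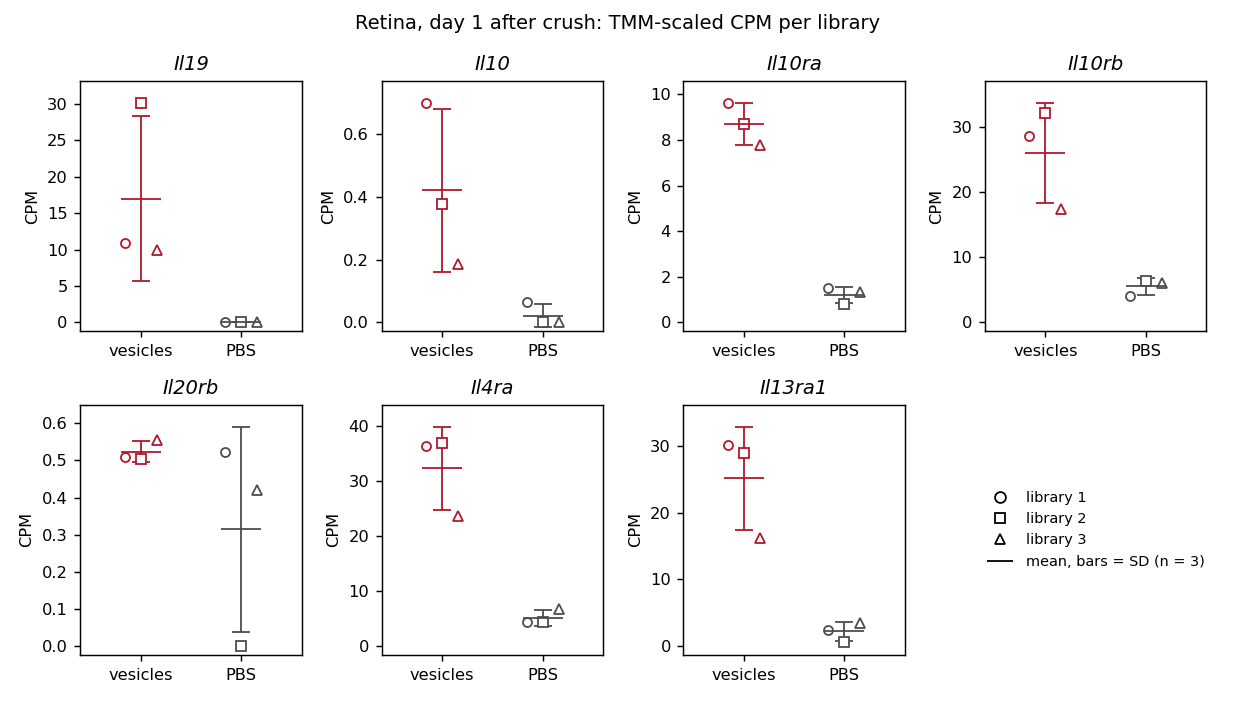
TMM-scaled CPM of the 7 genes in each retina library (vertical axes, which include 0) for vesicles and PBS. Points are libraries by number, horizontal lines are means and bars are SD (n = 3). The groups are apart for all but Il20rb, and Il19 reaches 30.1 CPM in vesicle library 2.

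Turning to the pericyte-labelled cells, Il19 was also higher with vesicles. It had 35, 21 and 9 counts with vesicles and 6, 1 and 0 with PBS, a ratio of sums of 9.46 (95% exact counting interval 4.34 to 24.5). The groups did not overlap, but PBS library 1 held most of the PBS reads, and without it the ratio was 42.9. With any other library left out it lay between 6.25 (without PBS library 3) and 12.5 (without vesicle library 3). Il19 did not pass the low-count filter there. Il10 had 0 counts in all 6 libraries, which allows up to 0.0777 to 0.0894 CPM, depending on the library.

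Of the receptor chains in these cells, Il4ra and Il10rb were the most clearly separated between the groups. Il4ra stood at 74, 71.2 and 68.4 CPM with vesicles and at 37.4, 36.4 and 36.3 CPM with PBS (log2 fold change 0.96 ± 0.07). Il10rb stood at 28.5, 27.1 and 30.7 CPM with vesicles and at 17.2, 15.1 and 16.7 CPM with PBS (log2 fold change 0.81 ± 0.09). For both genes the groups were well apart and the libraries of a group were close to each other. Il20rb stood at 1.82, 1.45 and 1.8 CPM with vesicles and at 1.04, 0.653 and 0.729 CPM with PBS (log2 fold change 1.06 ± 0.35). Il13ra1 stood at 86.3, 74.3 and 82.8 CPM with vesicles and at 70.4, 73.5 and 69.5 CPM with PBS (log2 fold change 0.19 ± 0.07). Its groups nearly touched, since vesicle library 2 lay just above PBS library 2. Il10ra had 12, 12 and 11 counts with vesicles and 9, 2 and 9 with PBS (log2 fold change 0.84 ± 0.68), a difference of the order of its error. Pan-leukocyte markers summed to between 11.6 and 18.6 CPM with vesicles and between 9.74 and 12.6 CPM with PBS, 2 of 5 rose, and their part in the Il10ra reads was not tested. Monocyte and macrophage markers summed to 86.8 to 131 CPM with vesicles and 80.4 to 85 CPM with PBS, and 0 of the 5 tested were called. Microglia markers summed to 173 to 190 CPM with vesicles and 185 to 196 CPM with PBS. Neutrophil markers summed to at most 0.457 CPM with vesicles and 0.285 CPM with PBS. Ccr2, S100a9, Cxcr2, Retnlg and Ly6g of these lists had no count in any of these libraries.

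**Figure D2:**
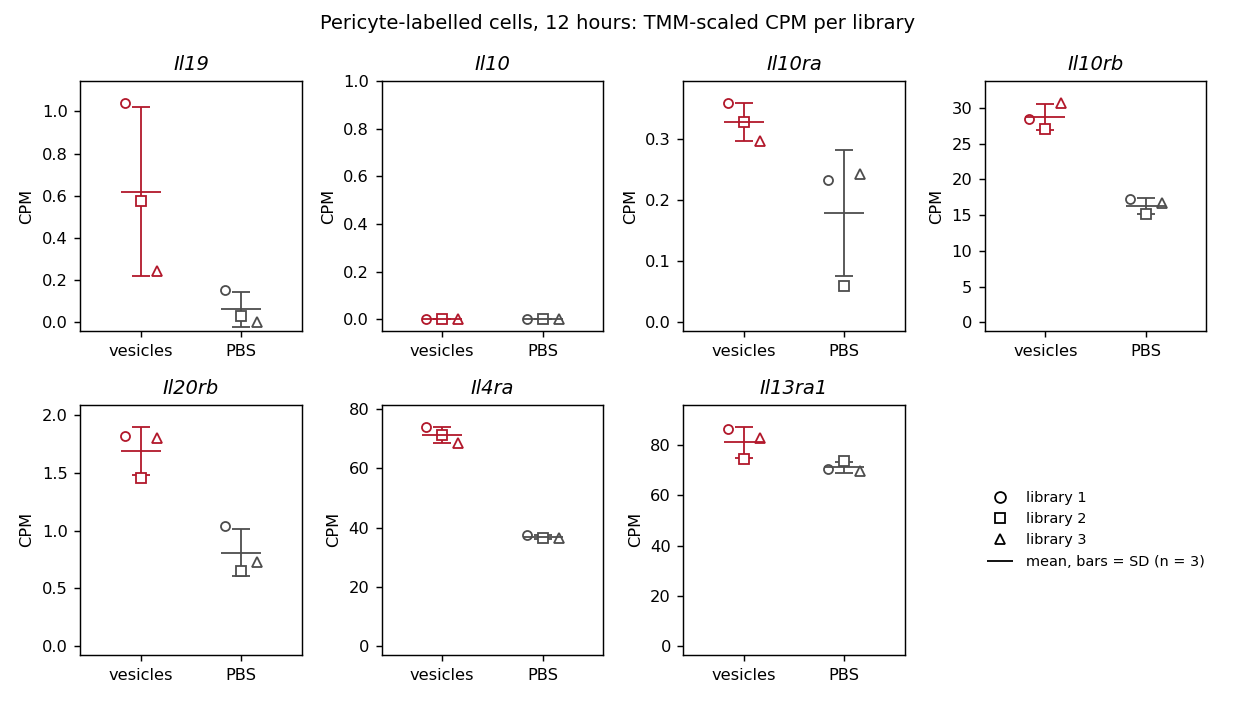
TMM-scaled CPM of the 7 genes in each library of the pericyte-labelled cells (vertical axes, which include 0) for vesicles and PBS. Points are libraries by number, horizontal lines are means and bars are SD (n = 3). Il4ra and Il10rb are tightly grouped and apart, Il13ra1 nearly touches, and Il10 is at 0 throughout.

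In the fit across all genes (edgeR's quasi-likelihood test with Benjamini-Hochberg adjustment, calls at adjusted p under 0.05), 5 of the 7 genes passed the low-count filter in each table. In the retina 5 of 5 were called higher and 0 lower, where 15.9% of the 15440 genes tested were called and 10.7% were called higher. Of the 5 tested in the pericyte-labelled cells 4 were called higher and 0 lower, where 19.8% of 16975 were called and 10.9% were called higher, and the exception was Il10ra. The groups did not overlap, with vesicles higher, for 6 of the 7 genes in each table. The 6 include Il10 in the retina and Il19 in the pericyte-labelled cells, which did not pass the filter. Over all genes tested 35.7% in the retina did not overlap and 19.5% did so with vesicles higher, and for the pericyte-labelled cells the shares were 33.8% and 17.4%. Since the genes were chosen with these contrasts known, and Il19 passed the retina filter only through the vesicle group, no support is read from these counts. Il13ra1 lost its retina call without PBS library 1 (log2 fold change 3.57, adjusted p = 0.051) and without the library richest in lens RNA of each group, vesicle library 2 and PBS library 1 (3.46, adjusted p = 0.13). For the pericyte-labelled cells only 2 of the 7 genes were called without vesicle library 1, PBS library 2 or PBS library 3. Without vesicle library 3 there were 3 and without PBS library 1 there were 4. Both counts include Il19, which passed the filter in those fits. Il19 also passed the filter without PBS library 2 or PBS library 3, but was not called in those fits. In the pericyte-labelled cells Il20rb lost its call without vesicle library 1 or 3 or PBS library 2 or 3 (adjusted p from 0.08 to 0.12). Il13ra1 lost its call without any library but vesicle library 2 (adjusted p from 0.087 to 0.19).

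Levels of different genes were compared after division by exon length, in CPM per kb of merged GENCODE M21 exons, within each table. In vesicle-treated retina Il19 was first at 14.8 ± 9.88 CPM per kb (SD, n = 3), followed by Il10rb at 6.84 ± 2.02. Their ranges were narrowly apart, with the lowest Il19 library at 8.69 and the highest Il10rb library at 8.43. Vesicle library 2 held 26.2 CPM per kb of Il19, against 9.49 and 8.69 in vesicle libraries 1 and 3. Il10rb, Il13ra1 (6.77 ± 2.09) and Il4ra (5.38 ± 1.26) overlapped as neighbours in the order. Il10ra followed at 2.49 ± 0.263, then Il10 at 0.322 ± 0.199 and Il20rb at 0.124 ± 0.00661, each apart from its neighbour. With PBS the order began with Il10rb at 1.45 ± 0.328 and Il4ra at 0.855 ± 0.238, Il19 was last with no reads, and only Il10ra and Il20rb were apart among neighbours.

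For pericyte-labelled cells the order began with the same 3 genes in both groups. Il13ra1 stood at 21.9 ± 1.66 CPM per kb with vesicles and 19.2 ± 0.565 with PBS, Il4ra at 11.9 ± 0.467 and 6.11 ± 0.101, and Il10rb at 7.55 ± 0.477 and 4.29 ± 0.288, all apart from their neighbours within a group. Il19 and Il20rb overlapped with vesicles, at 0.538 ± 0.349 and 0.402 ± 0.0495 CPM per kb. Levels of partner chains outside the 7 genes were taken in the same way. The common gamma chain Il2rg averaged 2.34 CPM per kb with vesicles and 0.64 with PBS in the retina, against 0.0547 and 0.0379 in the pericyte-labelled cells, where Il20ra had no count in any library. The tables were scaled separately, so these values stand side by side and are not compared.

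**Figure D3:**
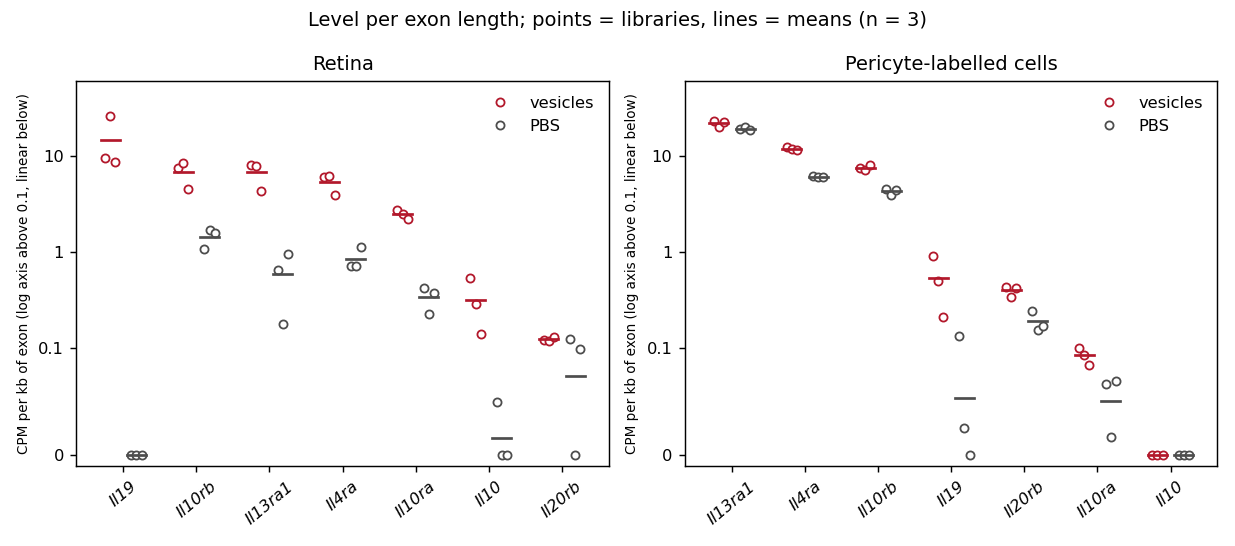
Level per exon length (vertical axis, CPM per kb, logarithmic above 0.1 and linear below) of the 7 genes in the retina and in pericyte-labelled cells, ordered by the vesicle mean. Points are libraries and lines are means (n = 3). Il19 has the highest mean in vesicle-treated retina, its range narrowly apart from that of Il10rb, and is at 0 with PBS. Il13ra1 leads in pericyte-labelled cells in both groups.

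The other genes of these pathways, taken from lists written with earlier results of these data known, were mostly higher in the retina. Of 38 that passed the filter, 27 rose and 2 fell, against 10.7% and 5.19% of all genes tested. Without the lens-rich library of each group 15 rose and 1 fell. The other IL-10 family members and receptors were few. Il20 had no count in any library of either table, and Il24 had none with vesicles and 7 over the PBS retina. Il22 was at 2.41 CPM with vesicles and 4.54 CPM with PBS (log2 fold change -0.91 ± 0.25, edgeR adjusted p = 0.037), a call lost without any 1 library (adjusted p from 0.062 to 0.13), and its near-identical copy Iltifb makes the sharing of reads uncertain. Of the other genes for IL-4 and IL-13, the decoy receptor Il13ra2 rose to 6.42 CPM with vesicles, against 0.293 CPM with PBS (log2 fold change 4.43 ± 0.72, adjusted p = 0.0055, and 3.79 without vesicle library 2). Il2rg rose to 5.6 CPM with vesicles, against 1.53 CPM with PBS (log2 fold change 1.88 ± 0.36, adjusted p = 0.0073). The ligand Il4 had 43, 79 and 66 counts with vesicles and 120, 76 and 65 with PBS (log2 fold change -0.47 ± 0.33, adjusted p = 0.38), and Il13 had none.

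Signalling and response genes in the retina rose in most cases. Of 10 kinases, STATs and feedback inhibitors of these receptors 7 rose and 0 fell (median log2 fold change 1.54, against -0.02 over all genes). Socs3, the feedback inhibitor induced by STAT3, rose to 90.4 CPM with vesicles, against 4.65 CPM with PBS (log2 fold change 4.28 ± 0.36, edgeR adjusted p = 0.0011). Stat3 rose to 161 CPM, against 40.2 CPM with PBS (2 ± 0.21, adjusted p = 0.0013, and 0.051 without the lens-rich libraries). On the log2 scale, Jak3, the kinase of the common gamma chain, rose by 2.9 ± 0.39 (adjusted p = 0.0014) and Stat6 by 1.52 ± 0.29 (adjusted p = 0.0088, and 0.058 without the lens-rich libraries). Of 11 tested genes known to respond to IL-10, 9 rose and Ddit4 fell (median 2.12). Among them Il1rn, the interleukin-1 receptor antagonist, rose to 86.6 CPM with vesicles, against 2.12 CPM with PBS (5.35 ± 0.49, adjusted p = 0.0021, and 0.065 without the lens-rich libraries; log2 fold change 5.98 without PBS library 3), and the corepressor Sbno2 by 2.55 ± 0.23 (adjusted p = 0.00027). These genes also respond to other cytokines, and which cytokine was involved was not tested.

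Of 11 tested IL-4 response genes in the retina, 8 rose and 0 fell (median log2 fold change 2.73). Ccl17, a chemokine for T helper cells, rose on the log2 scale by 4.99 ± 0.39 (edgeR adjusted p = 0.0001), Ccl11, which attracts eosinophils, by 4.65 ± 0.51 (adjusted p = 0.00048), the mannose receptor Mrc1 by 2.41 ± 0.35 (adjusted p = 0.002) and Egr2 by 4.67 ± 0.72 (adjusted p = 0.0032). The Egr2 value was 6.69 without PBS library 1 and 6.59 without the lens-rich libraries. Arg1, an arginine-degrading marker of alternative activation, had 1158, 1390 and 1185 counts with vesicles and 263, 39 and 266 with PBS. Its groups were apart, yet it did not pass the test (2.73 ± 0.73, adjusted p = 0.08), and it passed without PBS library 2 (2.24, adjusted p = 9.6e-05). Its adjusted p ran from 9.6e-05 to 0.28 over the alternatives. Retnla, another such marker, had 1, 2 and 0 counts with vesicles and 6, 1 and 0 with PBS. The alarmin Il33, an inducer of type 2 cytokines, rose to 480 CPM with vesicles, against 150 CPM with PBS (1.67 ± 0.18, adjusted p = 0.00068).

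Of 30 pathway genes tested in the pericyte-labelled cells 16 rose and Ddit4 fell, against 10.9% and 8.9% of all genes tested. Of the same 10 signalling genes 6 rose and 0 fell (median log2 fold change 0.32, against 0 over all genes). Socs1 rose to 12 CPM with vesicles, against 4.53 CPM with PBS (1.4 ± 0.16, edgeR adjusted p = 1.1e-06), Socs3 to 164 CPM, against 94.2 CPM (0.8 ± 0.07, adjusted p = 5.8e-08), and Stat3 by 0.37 ± 0.06 (adjusted p = 6.2e-05). Stat6 did not pass (0.2 ± 0.08, adjusted p = 0.064). Of 10 IL-10 response genes 5 rose, led by the IκB-related Bcl3 (1.78 ± 0.1, adjusted p = 3.5e-11) and Sbno2 (1.13 ± 0.07, adjusted p = 8.3e-11). These genes also respond to other cytokines, and which cytokine was involved was not tested. No Il10 read was found in these cells. Of 6 tested IL-4 response genes 3 rose, namely Arg1, Ccl17 and Tgm2. Arg1 had 71, 71 and 48 counts with vesicles and 6, 7 and 9 with PBS (3.12 ± 0.45, adjusted p = 2.6e-05). The alarmin Tslp rose to 3.92 CPM with vesicles, against 0.271 CPM with PBS (3.85 ± 0.44, adjusted p = 1.2e-06, and a log2 fold change of 4.48 without PBS library 2). Il4 had 66, 41 and 64 counts with vesicles and 92, 81 and 83 with PBS, and did not pass (-0.55 ± 0.28, adjusted p = 0.19).

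**Figure D4:**
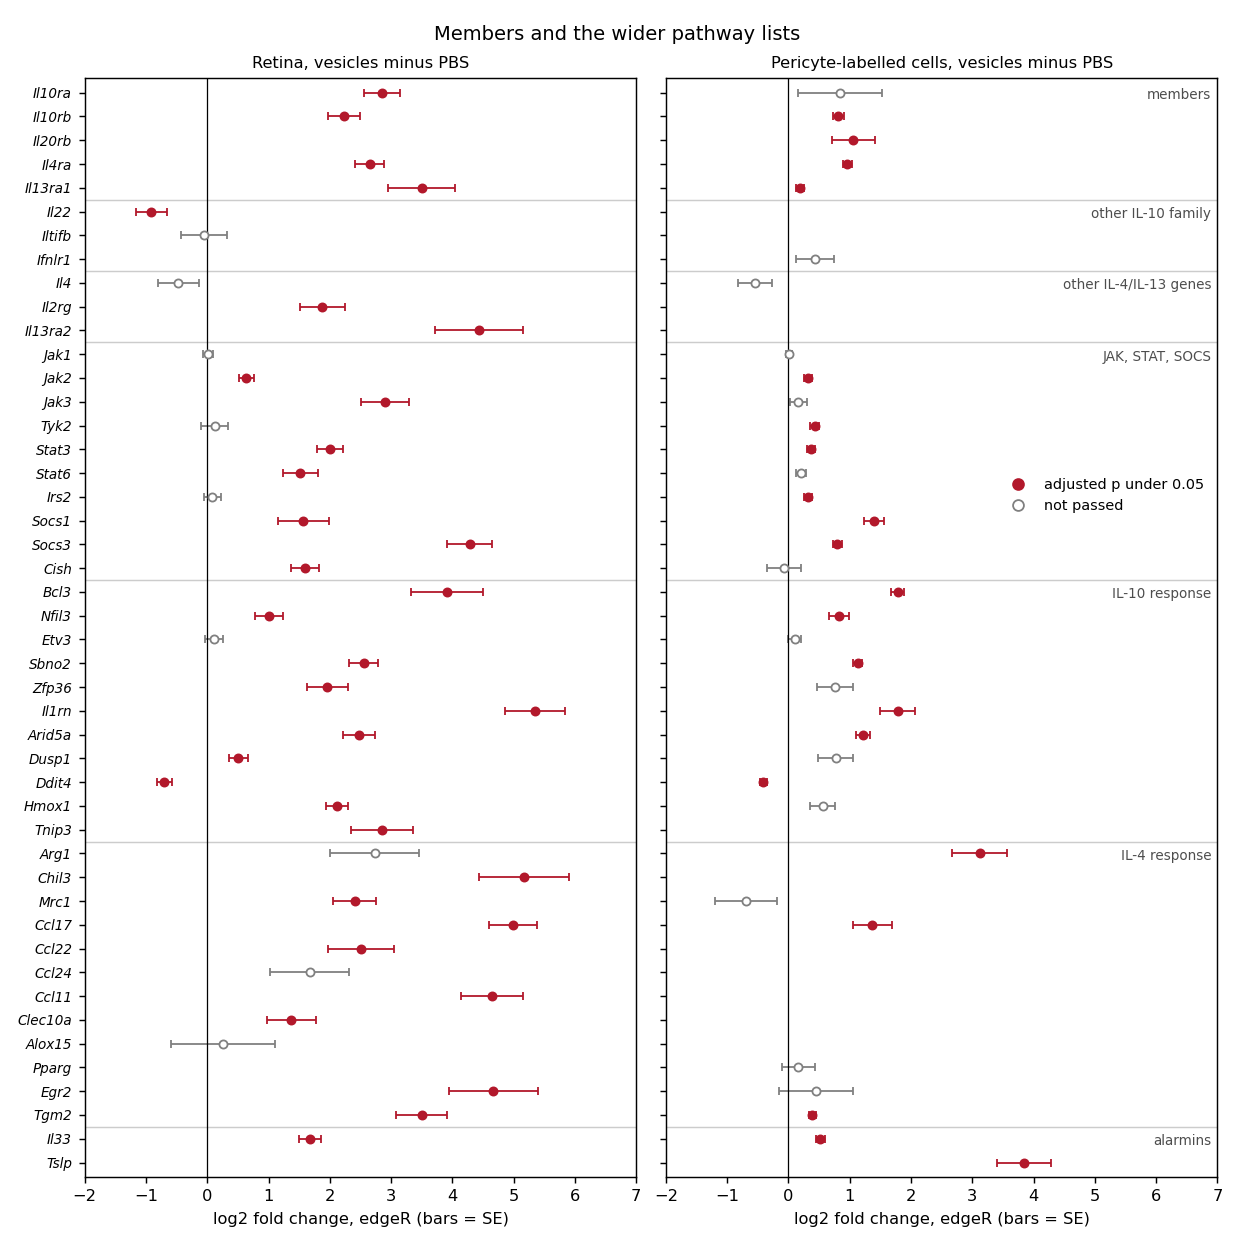
Log2 fold change, vesicles minus PBS, with SE (horizontal axis) for each of the 7 genes and each listed pathway gene that passed the low-count filter, in the retina and in pericyte-labelled cells. Filled points have an adjusted p under 0.05, and retina Il19, whose fold against 0 counts is a bound, is not drawn. In the retina 27 pathway genes rose and 2 fell, and in the pericyte-labelled cells 16 rose and 1 fell.

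Position gave a further view, from a rule set after these values were seen. In RefSeq's GRCm38.p6 annotation Il24, Il20, Il19 and Il10 are consecutive protein-coding genes of chromosome 1, followed by Mapkapk2. Of this run Il19 had 810 counts over the vesicle retina, Il10 20, and Il20 and Il24 none, so the high reads did not extend to the whole run. Mapkapk2, a kinase that stabilises cytokine mRNAs, rose to 60.4 CPM in the retina, against 27.4 CPM with PBS (1.14 ± 0.19, edgeR adjusted p = 0.0059, and 0.064 without the lens-rich libraries). Il10rb lies on chromosome 16 among interferon receptor genes, between Ifnar2 and Ifnar1 and near Ifngr2, and all 3 rose in both tables. The genes around them did not rise. Olig1 and Olig2 fell in the pericyte-labelled cells (-0.48 ± 0.06, adjusted p = 1.2e-05, and -0.29 ± 0.07, adjusted p = 0.0072) and had no count in the retina. Tmem50b was called in neither (-0.28 ± 0.11 in the retina and 0.1 ± 0.08 in the pericyte-labelled cells). In the retina Ifnar2 rose on the log2 scale by 1.57 ± 0.18 (adjusted p = 0.00064), Ifnar1 by 0.67 ± 0.19 (adjusted p = 0.04) and Ifngr2 by 0.71 ± 0.15 (adjusted p = 0.011). Ifnar1 lost that call without vesicle library 1 or 2 or any 1 PBS library, and without the lens-rich libraries (adjusted p from 0.053 to 0.14), and Ifngr2 lost it without the lens-rich libraries (0.051). The log2 rises in pericyte-labelled cells were 0.74 ± 0.09 (adjusted p = 3.1e-06), 0.42 ± 0.06 (8.4e-06) and 0.93 ± 0.06 (5.3e-10) for Ifnar2, Ifnar1 and Ifngr2. Among all 21 tested genes that were up to 3 places from one of the 7, 5 rose and 2 fell in the retina, where 10.7% of all genes tested rose and 5.19% fell. Likewise 5 rose and 4 fell in the pericyte-labelled cells, where 10.9% rose and 8.9% fell.

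Genes with the most similar profile were found by the root mean square difference of centred log2(CPM + 0.5) values over the 6 libraries of a table, among named genes with a mean of at least 1 CPM. Nearest to Il19 in the retina were Il6 (a difference of 0.172), Ptx3 (0.251), Csf3 and Cstdc4 (0.308 each) and Orm2 (0.34). Il19 had no PBS reads, so its PBS values in this comparison were the added 0.5 CPM alone. Il6, an inflammatory cytokine, stood at 12.2, 31.8 and 13.8 CPM with vesicles and at 0, 0.121 and 0.18 CPM with PBS. Like Il19 it was highest in vesicle library 2, the vesicle library richest in lens RNA. Nearest to Il4ra in the retina were Myo10 (0.0757), Csf1 (0.0904), Sbno2 (0.109), Junb (0.11) and Themis2 (0.129), which were all lowest of their group in vesicle library 3. Nearest to Il4ra in pericyte-labelled cells was Ifngr1 (0.0312), the ligand-binding chain of the interferon gamma receptor, at 123, 113 and 108 CPM with vesicles and 58.2, 57.1 and 57.3 CPM with PBS. It was followed by H2-D1, Sod2, Aida and Fgf7 (0.0462 to 0.054). For Il13ra1 there the nearest were Dnajb5, Ube2j1, Dpy19l1, Heatr1 and Rasa1 (0.0216 to 0.0288), small differences among profiles that hardly vary. Il10 in the retina was nearest to Ifih1 (0.0497), P2ry13, Ppic, Plxna2 and Samd7, a list that rests on a total of 21 counts and on the added 0.5 CPM.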

How the data were processed

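RNA of 12 mouse libraries was sequenced. Per the labels' protocols Trizol extracts went into an NEBNext Ultra library kit, and strand is not stated. Per the submitters' processing notes reads were checked with FastQC 0.11.8, aligned with HISAT2 2.0.5 and counted with featureCounts 1.5.0-p3, and limma was used. No genome build is stated by them or by the file headers. The deposited values are raw counts per gene, 1 table per tissue.

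Each table was fitted alone in R 4.3.3 with edgeR 4.0.16: filterByExpr (minimum count 10), TMM, robust quasi-likelihood test, vesicles against PBS, Benjamini-Hochberg over all genes tested, 2-sided, calls under 0.05. SE is the log2 fold change over the square root of F. An exact permutation test of 3 against 3 cannot go below p = 0.1. The fit was tested on simulated data. Exon lengths came from GENCODE M21, which held 99.8% and 99.5% of the gene IDs of the retina and pericyte tables.

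The members and lists were chosen with earlier results of these data known. Named pathway genes are up to 4 called genes per list and table in order of p, and the ligands. Stat6, Arg1 in the retina, Retnla and the neighbours were named after their values were seen. Numbers were not taken as pairs, since 3 libraries per group cannot show from the deviations of same-numbered libraries whether they were paired. Replicates differed by more than sampling noise (chi-squared per degree of freedom at least 6.12). Alternatives were no filter, RLE scaling, DESeq2 1.42.0, a replicate block and leaving out libraries.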

Additional observations from a re-analysis of the deposited data

How the results depend on the processing

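Direction was kept by every value of the 7 genes under every alternative run, and calls were lost by Il19, Il13ra1 and Il20rb. Over all genes in the retina 2449 were called, with 1328 to 2909 when 1 library was left out (1401 without vesicle library 1, 1381 without vesicle library 2 and 1328 without PBS library 2) and 1420 without the lens-rich library of each group. Other retina pathway genes called numbered 29, with 23 to 28 when 1 library was left out and 16 without the lens-rich libraries, a fit on 4 libraries. In the pericyte-labelled cells 4 of the 7 genes were called, with 2 to 4 when 1 library was left out.

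With no low-count filter 5 of the 7 genes were still called in the retina, but Il10 entered (log2 fold change 3.9 ± 1.25, adjusted p = 0.044) and Il19 left (adjusted p = 0.076, over all alternatives 7.4e-12 to 0.076). In the pericyte-labelled cells Il19 then entered (3.22 ± 0.85, adjusted p = 0.0023) and Il13ra1 left (adjusted p = 0.055). Of these 4 changes the cause was not tested. A replicate block called 1919 genes in the retina and 3287 in the pericyte-labelled cells. It took the call from Il13ra1 in the retina (3.56, adjusted p = 0.067) and the pericyte-labelled cells (0.19, adjusted p = 0.065). The same-numbered libraries' deviations correlated at 0.21, -0.2 and -0.03 in the retina and at 0.02, 0.03 and -0.02 in the other cells. With 3 libraries per group these values cannot show whether libraries were paired, and pairing was not assumed. Depth limits Il10 in both tables, Il20rb in the retina and Il19 and Il10ra in the pericyte-labelled cells.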
